A study of Mus musculus with 31 samples.

Results

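C/EBP proteins (CCAAT/enhancer-binding proteins) are transcription factors that bind DNA as pairs, joined through a leucine zipper next to a basic DNA-binding region. C/EBPα, β and δ carry activation domains and drive programs such as fat cell formation, the making of granulocytes and macrophages, and the acute-phase response. C/EBPγ lacks an activation domain, and the protein of *Ddit3* (CHOP) has an altered basic region, so both act largely through the partners they join, and CHOP is best known from endoplasmic reticulum stress. The members were chosen by name: *Cebpa*, *Cebpb*, *Cebpd*, *Cebpg* and *Ddit3*, which are 5 of the 39179 genes in the count file. In the standard recipe for turning cultured precursors into fat cells, the glucocorticoid is the part known to induce *Cebpd*.

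Bulk RNA from tumors and cultures of the mouse melanoma line 20967 was sequenced from its 3′ ends, to ask how a glucocorticoid (GC) acts with and without its receptor in the tumor cells. The line comes from C57BL/6 mice of the genotype Nras+LSL-G12D;Tyr::CreERT2+/o, which all 8 groups share, and its GR KO derivative was made by editing *Nr3c1* and growing single clones. The 20 tumors grew in the skin of wild-type C57BL/6 mice, whose ages are not given, and fall into 4 groups of 5: parental tumors and GR KO tumors, each with control treatment or with clobetasol propionate ointment (0.05%, 3 times weekly). The paper names cetraben cream as its topical control, so drug and base change together in these tumors. Host cells in all of these tumors keep the receptor, and whole tumors were used with no sorting. The 11 cultures were kept for 48 hours: 3 parental cultures in DMSO, 2 parental cultures in clobetasol propionate, 3 GR KO cultures in DMSO and 3 GR KO cultures in clobetasol propionate. For the cultures the treatment labels give 10 µM, while the library names and the design text give 1 µM. Reads counted per library ran from 15528066 to 26386770 in tumors and from 14441166 to 22463188 in cultures, so that 3 counts, taken as the floor, equal 0.114 to 0.208 CPM. Levels are CPM, counts scaled to the size of each library with TMM factors over all 31 libraries, given per library or as mean ± SD. Log2 fold changes and p-values, adjusted over all genes tested, come from edgeR. Standard errors (SE) of the log2 fold changes were derived, as the absolute log2 fold change divided by the square root of the test's F value. A gene was called a DEG where its adjusted p was below 0.05 and its level changed at least 1.5-fold. Because reads come from 3′ ends, members' levels are compared between libraries for 1 gene and not between genes. Sums over cell markers and the naming of their most abundant gene do mix genes, and so serve only as a rough guide.

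Some tumor libraries stood apart before any gene was compared. The gene model *Gm26924* took 11.6, 8.97, 6.57, 0.248 and 16.3% of the reads in GR KO control tumors 1 to 5. Its share was 5.55, 1.76, 1.24, 1.70 and 0.439% in parental control tumors, 1.60, 2.78, 1.25, 1.67 and 0.700% in parental tumors with GC, and 0.800, 2.89, 0.959, 6.65 and 1.48% in GR KO tumors with GC. Thus 6 tumors exceeded 5%, and 4 of them were GR KO control tumors. At equal depth, GR KO control tumors held a median of 14795 detected genes, against 16092 in parental control tumors, 16658 in parental tumors with GC and 16437 in GR KO tumors with GC. In cultures the share of *Gm26924* lay between 1.65 and 4.14%. Within tumors, the 5 members and the counts of DEGs were also fitted without these 6 tumors, while other genes, cell markers and contrasts of tumors with cultures are given only with them.

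*Nr3c1*, the edited gene, stood at 54.1 ± 7.21 CPM in parental control tumors and 27.0 ± 5.45 CPM in GR KO control tumors (n = 5 each), a log2 difference of -1.02 (SE 0.24, adjusted p = 0.0313). With GC the difference between genotypes was -0.024 (SE 0.24, adjusted p = 0.981). In cultures it was -0.67 (SE 0.22, adjusted p = 0.0840) with DMSO and -0.95 (SE 0.24, adjusted p = 0.0384) with GC. A small edit need not change counts from the 3′ end, and host cells carry the intact gene, so these values do not check the knockout labels.

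*Cebpd* encodes C/EBPδ, a family member that is low in most resting cells and is induced early by cytokines and hormones. Its level was 68.6, 50.0, 93.1, 51.8 and 94.7 CPM in parental control tumors 1 to 5 and 267, 111, 344, 193 and 234 CPM in parental tumors with GC. All 5 GC-treated tumors lay above all 5 control tumors, with tumor 2 the lowest and tumor 3 the highest of the treated ones. GR KO tumors held 25.0, 46.9, 58.6, 47.1 and 47.8 CPM with control treatment and 55.8, 56.4, 56.7, 91.2 and 94.3 CPM with GC. Here the groups overlapped, since control tumor 3 exceeded 3 of the GC-treated tumors, although 2 GC-treated tumors lay above every control.

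In parental tumors *Cebpd* rose 3.17-fold with GC, a log2 fold change of 1.66 (SE 0.28, adjusted p = 0.00355), n = 5 and 5. The exact two-sided permutation test of mean log2(CPM + 1) gave p = 0.00794, the smallest that 252 divisions of the tumors allow. In GR KO tumors the log2 fold change was 0.69 (SE 0.28, adjusted p = 0.127), with an exact permutation p of 0.0317, and *Cebpd* was not called. The difference between the 2 effects, tested directly, was 0.97 (SE 0.39, adjusted p = 0.174), so the response was not shown to differ between genotypes. After GC, *Cebpd* was lower in all 5 GR KO tumors than in any parental tumor, by a log2 difference of -1.66 (SE 0.28, adjusted p = 0.00479). Among control tumors, 4 of 5 GR KO tumors lay below every parental tumor, with an exact permutation p of 0.0476, but the difference of -0.69 (SE 0.28, adjusted p = 0.169) was not called. In bulk tumors, a lower level can come from fewer cells of a type or from less RNA per cell, and these cannot be told apart. Both called tumor differences of *Cebpd* were also called without the 6 tumors rich in *Gm26924* and in each of the 21 alternative fits, where the adjusted p ranged from 2.4e-06 to 0.0166 for GC in parental tumors and from 2.93e-06 to 0.0198 for genotype after GC.

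**Figure D1:**
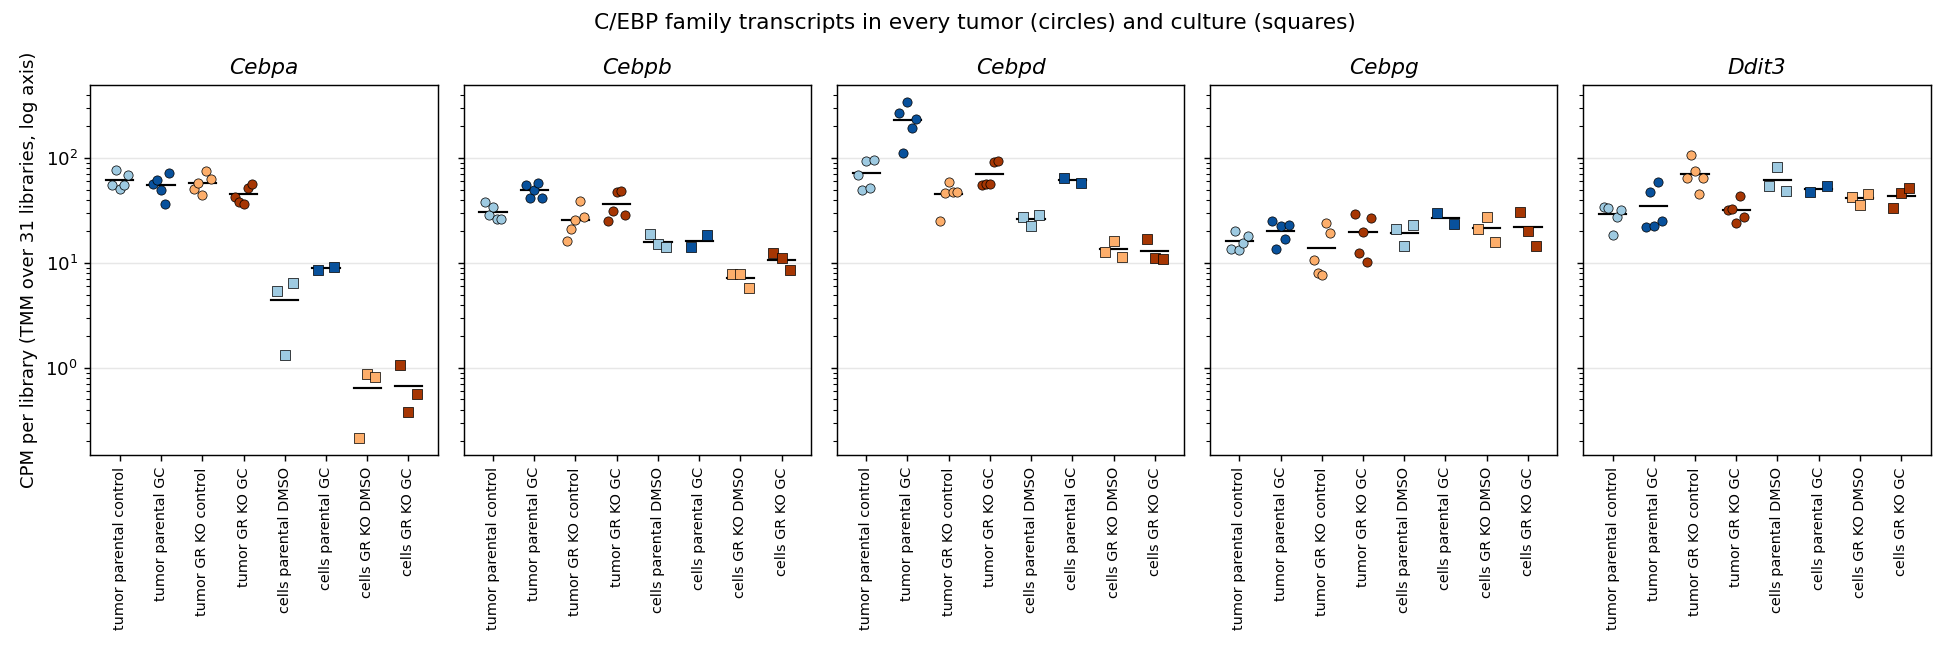
Level of each C/EBP family gene in every tumor (circles) and culture (squares), in TMM-scaled CPM on a log axis, with the mean of each group as a line. *Cebpd* lay between 111 and 344 CPM in parental tumors with GC and between 50.0 and 94.7 CPM in parental control tumors, and *Cebpa* was at or under 1.05 CPM in all 6 GR KO cultures.

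Host cell markers moved in the same tumors, and their part in the *Cebpd* result was not tested. Of 6 neutrophil markers, 2 (*S100a8* and *S100a9*) fell with GC in parental tumors and none rose. Their summed level was 23.6, 68.9, 239.9, 33.5 and 1235 CPM in parental control tumors and 16.5, 11.1, 13.7, 24.7 and 40.3 CPM with GC, with *S100a8* the most abundant and none at 0 in a whole group. In GR KO tumors the sum was 423, 768, 264, 189 and 1018 CPM with control treatment and 98.0, 51.0, 229, 196 and 131 CPM with GC. Of 5 fibroblast markers, led by *Col3a1*, none was called with GC in parental tumors, where their sum was 8035, 6023, 8515, 5753 and 7980.5 CPM against 4895, 5941, 5698, 5836 and 5513 CPM in controls. Among the treated tumors, numbers 3, 1 and 5 had the most of both *Cebpd* and the fibroblast sum, while 2 and 4 had the least of both and also the fewest genes detected at equal depth, 15805 and 15793. Of 4 endothelial markers none was called in this comparison, yet their sum was 65.5, 52.9, 42.4, 67.8 and 46.5 CPM in controls and 34.7, 16.8, 25.3, 33.6 and 32.4 CPM with GC, led by *Kdr*, with no overlap. Of 7 macrophage and monocyte markers, led by *C1qa*, none was called, with summed means of 4305 ± 743 and 5931 ± 2054 CPM. In treated tumors 1 to 5 this sum was 5606, 7780, 3288, 8184 and 4796 CPM. Tumors 2 and 4 thus had the most and tumor 3 the least, opposite to *Cebpd*. Of 6 keratinocyte markers 1 rose, with sums of 1892 ± 849 and 2093 ± 167 CPM. Between genotypes after GC, 1 of 5 adipocyte markers was lower in GR KO tumors (median -1.15) and none of the other lists held a call. The adipocyte sum, led by *Cfd*, was 129, 117, 145, 159 and 124 CPM in parental and 69.6, 68.3, 57.8, 69.3 and 47.2 CPM in GR KO tumors with GC, with no overlap and no marker at 0 in a whole group. Neutrophil and endothelial sums also separated these groups without overlap, but were higher in GR KO tumors. They ran from 11.1 to 40.3 CPM in parental and from 51.0 to 229 CPM in GR KO tumors for neutrophil markers (median 1.82). For endothelial markers they ran from 16.8 to 34.7 CPM and from 41.5 to 54.7 CPM (median 0.78).

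Cultures hold the line without a host. All 5 T cell markers had 0 counts in all 11 cultures and the neutrophil sum was at or under 0.496 CPM, while group means reached 7.55 CPM for macrophage and monocyte, 4.20 CPM for endothelial and 233 CPM for fibroblast markers. *Cebpd* was 27.2, 22.4 and 28.3 CPM in parental cells with DMSO and 64.5 and 58.3 CPM with GC. In GR KO cells it was 12.8, 16.3 and 11.5 CPM with DMSO and 17.1, 11.1 and 10.99 CPM with GC. Both GC-treated parental cultures lay above all 3 controls, whereas the GR KO groups overlapped. Exact permutation tests cannot go below p = 0.1 with so few cultures. With GC, *Cebpd* rose 2.35-fold in parental cells, by 1.23 (SE 0.22, adjusted p = 0.0222) on the log2 scale, and the value for GR KO cells was -0.024 (SE 0.20, adjusted p = 0.997). The difference between these effects was 1.25 (SE 0.30, adjusted p = 0.178) by edgeR and 1.26 (adjusted p = 0.0190) by DESeq2, with adjusted p from 0.0190 to 0.766 over 18 alternative fits; leaving out GR KO GC culture 1 also passed the threshold, at 1.48 (adjusted p = 0.0471).

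The call for GC in parental cells was lost without any 1 of the 5 parental cultures. The log2 fold change was 1.25 (adjusted p = 0.0900) without DMSO culture 1, 1.13 (adjusted p = 0.0716) without DMSO culture 2 and 1.30 (adjusted p = 0.0688) without DMSO culture 3. Without GC culture 1 it was 1.16 (adjusted p = 0.257), and without GC culture 2 it was 1.30 (adjusted p = 0.143), each with a lone treated culture assumed to vary like the other groups. *Cebpd* was thus higher in each fit, while the call needed all 5 cultures. With the replicate number as a block the value was 1.18 (adjusted p = 0.0800), and over 13 alternative fits the adjusted p ran from 6.86e-05 to 0.257. Between genotypes, *Cebpd* was lower in GR KO cells by -0.95 (SE 0.20, adjusted p = 0.0126) with DMSO and -2.20 (SE 0.22, adjusted p = 0.000122) with GC, and in both treatments every GR KO culture lay below every parental culture. The DMSO call was lost without GR KO DMSO culture 1, at -0.90 (adjusted p = 0.0594), without GR KO DMSO culture 3, at -0.85 (adjusted p = 0.0567), and with a minimum fold change of 2, over a range of adjusted p from 0.000362 to 0.0594. The call with GC held in each of 13 alternative fits.

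Across the 8 groups, the order of *Cebpd* was led by parental tumors with GC, at 229.7 ± 86.3 CPM, which did not overlap the next group. Parental control tumors (71.6 ± 21.6), GR KO tumors with GC (70.9 ± 20.003), parental cells with GC (61.4 ± 4.40), GR KO control tumors (45.1 ± 12.3) and parental cells with DMSO (25.99 ± 3.15) followed, each overlapping its neighbor in the order. GR KO cells with DMSO (13.5 ± 2.50) and with GC (13.1 ± 3.48) lay below all of these and overlapped each other.

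*Cebpb* encodes C/EBPβ, which acts in inflammatory signaling, macrophages and early fat cell formation. It was 37.9, 28.6, 33.7, 25.995 and 26.5 CPM in parental control tumors and 55.5, 41.2, 50.0, 58.0 and 41.8 CPM in parental tumors with GC. As for *Cebpd*, these groups did not overlap. GR KO tumors held 16.2, 21.1, 25.8, 38.8 and 27.2 CPM with control treatment and 25.0, 31.03, 47.2, 48.7 and 28.8 CPM with GC, and the groups overlapped broadly. Despite the separation in parental tumors, where the exact permutation p was 0.00794, edgeR did not call *Cebpb* over all genes, with a log2 fold change of 0.69 (SE 0.23, adjusted p = 0.171). For GR KO tumors the value was 0.52 (SE 0.23, adjusted p = 0.153). Leaving out GR KO control tumor 4, the highest of its group for *Cebpb* and the lowest for *Gm26924*, made it 0.69 (adjusted p = 0.0405). Without the 6 tumors rich in *Gm26924* it was -0.13, and over 21 alternative fits the adjusted p ran from 0.0405 to 0.975. The 2 effects differed by 0.16 (SE 0.32, adjusted p = 0.809), a difference that was -0.00017 (adjusted p = 1.00) without GR KO control tumor 4 and 0.92 (adjusted p = 0.797) without the 6 tumors. Between genotypes the log2 differences were -0.27 (SE 0.23, adjusted p = 0.523) in control tumors and -0.43 (SE 0.22, adjusted p = 0.476) in GC-treated tumors. Without the *Gm26924*-rich tumors the control value turned to 0.35 (adjusted p = 1.00).

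In cultures *Cebpb* was 18.8, 15.1 and 14.1 CPM in parental cells with DMSO and 14.1 and 18.3 CPM with GC. In GR KO cells it was 7.93, 7.80 and 5.79 CPM with DMSO and 12.4, 11.1 and 8.62 CPM with GC. All GR KO cultures lay below all parental cultures of the same treatment, and within GR KO cells all 3 GC cultures lay above all 3 DMSO cultures. The genotype difference with DMSO, -1.17 (SE 0.22, adjusted p = 0.00608), was called in the reported fit and in 14 alternative fits, with adjusted p up to 0.0334. With GC the difference was -0.57 (SE 0.23, adjusted p = 0.223). The log2 fold change with GC was 0.014 (SE 0.24, adjusted p = 0.986) in parental cells and 0.61 (SE 0.21, adjusted p = 0.976) in GR KO cells, with a difference between effects of -0.60 (SE 0.32, adjusted p = 0.576). In parental cells the sign turned in 5 of 13 alternative fits, with values from -0.19 to 0.19. Across groups, *Cebpb* ran from 49.3 ± 7.70 CPM in parental tumors with GC through 36.1 ± 11.001, 30.5 ± 5.14 and 25.8 ± 8.46 CPM in GR KO tumors with GC, parental control tumors and GR KO control tumors. Parental cells with GC and with DMSO followed at 16.2 ± 2.97 and 16.0 ± 2.50 CPM, each of these groups overlapping the next. GR KO cells with GC, at 10.7 ± 1.93 CPM, and with DMSO, at 7.17 ± 1.20 CPM, stood below, with no overlap between neighbors.

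*Cebpa* encodes C/EBPα, which stops division and completes differentiation in fat cells and granulocytes. Tumors of all 4 groups lay close together: 54.9, 77.3, 50.5, 54.9 and 68.9 CPM in parental control tumors, 56.0, 61.4, 49.4, 36.7 and 71.7 CPM in parental tumors with GC, 51.1, 57.7, 43.9, 75.9 and 62.7 CPM in GR KO control tumors and 42.8, 38.2, 36.5, 52.3 and 56.7 CPM in GR KO tumors with GC. All of these ranges overlapped. Cultures were far lower: 5.45, 1.32 and 6.47 CPM in parental cells with DMSO, 8.57 and 9.22 CPM with GC, 0.216, 0.882 and 0.820 CPM in GR KO cells with DMSO and 1.05, 0.377 and 0.562 CPM with GC. Behind these stood 21 to 199 counts in parental cultures and 4 to 18 counts in GR KO cultures. Parental and GR KO cultures did not overlap, and neither did parental cells with GC and with DMSO.

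In tumors no change of *Cebpa* was called. GC gave -0.16 (SE 0.20, adjusted p = 0.780) in parental and -0.32 (SE 0.20, adjusted p = 0.332) in GR KO tumors, with a difference of 0.17 (SE 0.28, adjusted p = 0.780), and genotype gave -0.093 (SE 0.20, adjusted p = 0.830) in control and -0.26 (SE 0.20, adjusted p = 0.651) in GC-treated tumors. The control value changed sign to 0.0078 (adjusted p = 0.999) with the number of genes detected as a covariate and to 0.19 (adjusted p = 1.00) without the *Gm26924*-rich tumors. In cultures *Cebpa* was 6.84-fold lower in GR KO cells than in parental cells with DMSO, by -2.77 (SE 0.64, adjusted p = 0.0191), and 13.2-fold lower with GC, by -3.72 (SE 0.68, adjusted p = 0.00669). The call with GC held in 12 alternative fits, with adjusted p up to 0.0427. The call with DMSO was lost in 5 of 6 fits that leave out 1 culture: -2.59 (adjusted p = 0.0623) without parental DMSO culture 1, -2.39 (adjusted p = 0.0596) without parental DMSO culture 3, -2.37 (adjusted p = 0.0698), -3.08 (adjusted p = 0.0512) and -2.99 (adjusted p = 0.0502) without GR KO DMSO cultures 1, 2 and 3. Over 13 alternative fits its adjusted p ran from 0.000202 to 0.0698, always with a lower level in GR KO cells. GC against DMSO gave 1.00 (SE 0.61, adjusted p = 0.681) in parental and 0.058 (SE 0.68, adjusted p = 0.998) in GR KO cells, with a difference of 0.94 (SE 0.92, adjusted p = 0.661). In GR KO cells the sign turned to -0.35 (adjusted p = 1.00) without DMSO culture 1 and to -0.42 (adjusted p = 0.815) without GC culture 1. Over the 8 groups, tumors held the top of the order, from 61.3 ± 11.3 CPM in parental control tumors through 58.2 ± 12.1 and 55.1 ± 13.1 to 45.3 ± 8.83 CPM in GR KO tumors with GC. Parental cells with GC (8.90 ± 0.454 CPM) and with DMSO (4.41 ± 2.73 CPM) came next, each apart from its neighbors, above GR KO cells with GC (0.664 ± 0.349 CPM) and DMSO (0.639 ± 0.368 CPM), which overlapped.

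*Cebpg* encodes C/EBPγ, a partner without an activation domain that pairs with other C/EBP proteins and with ATF4. Tumors ranged from 7.59 to 29.5 CPM and cultures from 14.4 to 30.8 CPM. Group means ran from 13.8 ± 7.23 CPM in GR KO control tumors to 26.8 ± 4.36 CPM in parental cells with GC, with 16.2 ± 3.03 CPM in parental control tumors, 19.4 ± 4.38 in parental cells with DMSO, 19.8 ± 8.45 in GR KO tumors with GC and 20.2 ± 4.72 in parental tumors with GC. GR KO cells with DMSO and GC stood at 21.3 ± 5.77 and 21.8 ± 8.34 CPM, and each group overlapped its neighbors in the order. edgeR called *Cebpg* in none of 12 contrasts, where its unadjusted p was never under 0.05 and DESeq2 called it in 0. GC gave 0.31 (SE 0.32, adjusted p = 0.709) in parental tumors, 0.56 (SE 0.32, adjusted p = 0.283) in GR KO tumors, 0.45 (SE 0.32, adjusted p = 0.698) in parental cells and 0.056 (SE 0.28, adjusted p = 0.986) in GR KO cells. In tumors the value closest to 0 was that between genotypes after GC, 0.00099 (SE 0.32, adjusted p = 0.999), whose sign turned in 9 of 21 alternative fits. Against GR KO cells with DMSO, *Cebpg* in GR KO control tumors differed by -0.62 (SE 0.35, adjusted p = 0.129). This difference was called only without GR KO control tumor 4, at -0.93 (adjusted p = 0.0201), with adjusted p from 0.0201 to 0.369 over 15 alternative fits.

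*Ddit3* encodes CHOP, a stress-induced partner of C/EBP proteins that promotes cell death under lasting endoplasmic reticulum stress. It was 34.1, 33.4, 18.6, 27.6 and 31.9 CPM in parental control tumors and 21.9, 47.6, 22.3, 59.1 and 25.2 CPM in parental tumors with GC. GR KO tumors held 64.5, 106, 75.5, 45.7 and 63.9 CPM with control treatment and 31.6, 32.4, 24.2, 43.6 and 27.5 CPM with GC. GR KO control tumors stood above all parental control tumors and above all GR KO tumors with GC, while 2 parental tumors with GC lay above all of their controls and none lay below all of them. GR KO control tumor 4, the member of its group with little *Gm26924*, was the lowest of the 5 but above every parental control tumor.

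Among control tumors, *Ddit3* was 2.43-fold higher in the GR KO group, by 1.28 (SE 0.29, adjusted p = 0.0281), and fell with GC in GR KO tumors by -1.13 (SE 0.29, adjusted p = 0.0222), with an exact permutation p of 0.00794 for each. The GR KO control tumors serve in both comparisons. GC gave 0.28 (SE 0.29, adjusted p = 0.701) in parental tumors, and genotype gave -0.14 (SE 0.29, adjusted p = 0.888) among GC-treated tumors, a value that turned to 0.0070 (adjusted p = 1.00) and 0.14 (adjusted p = 0.941) without parental GC tumors 2 and 4. The difference between the GC effects, 1.42 (SE 0.41, adjusted p = 0.0978), did not pass by edgeR, so the response was not shown to differ between genotypes. It passed by DESeq2, 1.45 (adjusted p = 0.0242), and without GR KO control tumor 4, 1.55 (adjusted p = 0.0275), with adjusted p from 0.0242 to 0.857 over 30 alternative fits.

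Both *Ddit3* calls were lost in fits that take account of *Gm26924* or of genes detected. As 4 of the 5 GR KO control tumors were rich in *Gm26924*, effects of that share and of the group cannot be told apart. Without the 6 tumors over 5% *Gm26924*, the genotype difference was 0.63 (adjusted p = 1.00) and the GC effect -0.56 (adjusted p = 0.852). With the share of *Gm26924* as a covariate they were 0.99 (adjusted p = 0.0948) and -0.91 (adjusted p = 0.0560). With the number of genes detected as a covariate they were 0.82 (adjusted p = 0.277) and -0.72 (adjusted p = 0.218). Neither passed in any of these fits, and the directions held. The omission leaves 1 GR KO control tumor and called 0 of all genes between genotypes and 29 for GC, so a lost call says little there. Without GR KO control tumor 4, the 1 with little *Gm26924*, the values were 1.41 (adjusted p = 0.00624) and -1.26 (adjusted p = 0.00681). Single tumors also ended calls. The genotype call was lost without parental control tumor 2 (1.33, adjusted p = 0.0503), 3 (1.16, adjusted p = 0.0759) or 4 (1.26, adjusted p = 0.0638), and without GR KO control tumor 1 (1.31, adjusted p = 0.0551) or 2 (1.08, adjusted p = 0.0828). The call for GC was lost without GR KO control tumor 2 (-0.94, adjusted p = 0.0755) and without GR KO GC tumor 3 (-1.04, adjusted p = 0.0730) or 5 (-1.09, adjusted p = 0.0614). Over 21 alternative fits each, adjusted p ran from 0.00157 to 1.00 for genotype and from 0.00325 to 0.852 for GC.

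**Figure D2:**
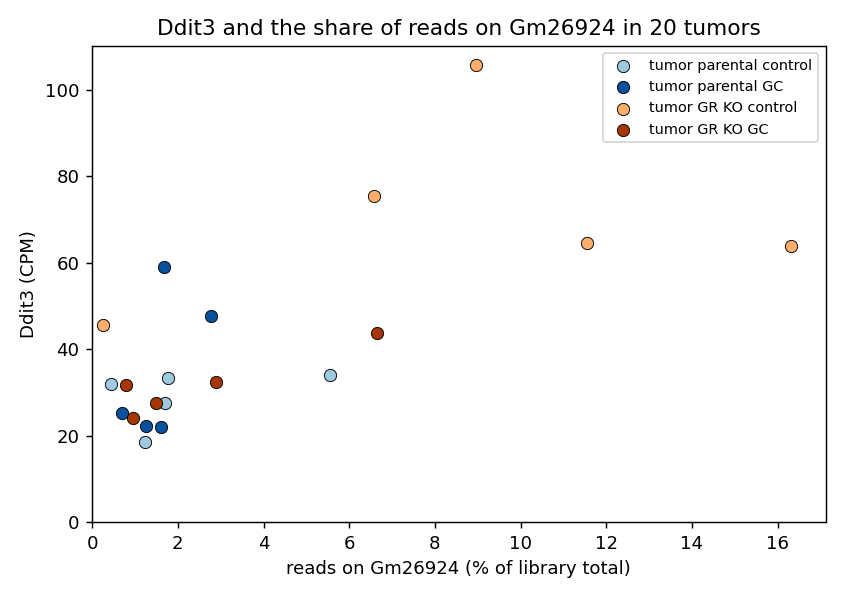
Level of *Ddit3* in CPM against the share of reads on *Gm26924*, in percent, for the 20 tumors colored by group. The 4 GR KO control tumors with 6.57 to 16.3% of reads on *Gm26924* held 63.9 to 106 CPM of *Ddit3*, and the 1 with 0.248% held 45.7 CPM. The other 2 tumors over 5% held 43.6 CPM (GR KO with GC, 6.65%) and 34.1 CPM (parental control, 5.55%), and parental GC tumor 4 held 59.1 CPM at 1.67%.

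Markers of host tissue differed between the same tumor groups, and their part in the *Ddit3* result was not tested. Of 5 fibroblast markers 3 rose with GC in GR KO tumors, and 1 was lower in GR KO control tumors than in parental ones. Their sum was 3098, 3219, 3595, 5388 and 4096 CPM in GR KO control tumors, 6584, 6099.5, 7208, 5661 and 6582 CPM with GC and 4895, 5941, 5698, 5836 and 5513 CPM in parental control tumors, led by *Col1a1* or *Col3a1*. Of 4 endothelial markers 1 was higher in GR KO control tumors than in parental ones and 1 fell with GC in GR KO tumors, where the sum was 91.8, 80.2, 97.7, 107 and 74.2 CPM with control treatment and 46.5, 54.7, 44.5, 41.5 and 45.7 CPM with GC. Of the other marker lists in GR KO tumors with GC, 1 of 7 macrophage and monocyte and 2 of 6 keratinocyte markers rose, and 1 each of 5 T cell, 5 adipocyte, 6 keratinocyte and 4 skeletal muscle markers fell. Macrophage and monocyte sums, led by *C1qa*, were 8709, 7489.5, 5091, 6484 and 6215 CPM in GR KO control tumors and 4644, 7322, 4169.7, 4534 and 3878 CPM with GC. In parental controls they were 4955, 5029, 3787, 4437 and 3318 CPM, below all GR KO controls, with none of the 7 markers called between these 2 groups. Between genotypes in control tumors 1 of 6 keratinocyte markers was lower in GR KO, although their sum, led by *Krt14*, averaged 3076 ± 808 CPM there, 1892 ± 849 CPM in parental control tumors and 1749 ± 327 CPM in GR KO tumors with GC. Adipocyte sums, led by *Cfd*, averaged 138 ± 55.6 CPM in control and 62.4 ± 9.84 CPM in GC-treated GR KO tumors. T cell sums, led by *Cd3d*, averaged 83.4 ± 29.2 and 44.0 ± 13.5 CPM, and skeletal muscle sums, led by *Acta1*, 419 ± 120.2 and 259 ± 51.3 CPM.

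In cultures *Ddit3* did not repeat the tumor pattern. It was 54.0, 81.5 and 48.7 CPM in parental cells with DMSO, 47.5 and 54.5 CPM with GC, 42.6, 35.4 and 45.3 CPM in GR KO cells with DMSO and 33.6, 46.1 and 51.3 CPM with GC. All 3 GR KO cultures with DMSO lay below all 3 parental ones, opposite to control tumors, but the difference of -0.59 (SE 0.22, adjusted p = 0.125) was not called. GC gave -0.28 (SE 0.25, adjusted p = 0.724) in parental and 0.12 (SE 0.22, adjusted p = 0.976) in GR KO cells, with a difference of -0.40 (SE 0.33, adjusted p = 0.612). Among GC-treated cells, genotype gave -0.19 (SE 0.24, adjusted p = 0.771). Across groups, GR KO control tumors led at 71.1 ± 22.1 CPM. Then came parental cells with DMSO (61.4 ± 17.6) and GC (51.0 ± 4.98), GR KO cells with GC (43.7 ± 9.10) and DMSO (41.1 ± 5.10), and parental tumors with GC (35.2 ± 17.1), GR KO tumors with GC (31.8 ± 7.38) and parental control tumors (29.1 ± 6.40). Each group overlapped its neighbors in this order.

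Between tumors and cultures the members moved in different directions, in a fit of all 31 libraries. Parental control tumors were 13.9-fold above parental cells with DMSO for *Cebpa*, by 3.79 (SE 0.39, adjusted p = 2.49e-09). *Cebpb* was higher by 0.93 (SE 0.26, adjusted p = 0.00336) and *Cebpd* by 1.46 (SE 0.31, adjusted p = 0.000223). *Ddit3* was lower in these tumors, by -1.08 (SE 0.29, adjusted p = 0.00274), and *Cebpg* differed by -0.26 (SE 0.35, adjusted p = 0.570). In the GR KO pair, tumors were 89.7-fold above cells for *Cebpa*, by 6.49 (SE 0.47, adjusted p = 8.33e-13), which rests on 4 to 18 counts in the 3 cultures. *Cebpb* and *Cebpd* were again higher, by 1.85 (SE 0.27, adjusted p = 9.51e-07) and 1.73 (SE 0.31, adjusted p = 2.48e-05). *Ddit3* was higher in the GR KO tumors, by 0.79 (SE 0.30, adjusted p = 0.0276), and so pointed the other way than in the parental pair; this call was lost without GR KO control tumor 2 (0.60, adjusted p = 0.0907), without GR KO DMSO culture 1 (0.82, adjusted p = 0.0605) or 2 (0.68, adjusted p = 0.128), and with a minimum fold change of 2, with adjusted p from 0.0119 to 0.128. For *Cebpa*, *Cebpb* and *Cebpd* no tumor overlapped a culture in either pair, and the exact permutation p was 0.0179 each, the smallest for 5 against 3. *Ddit3* also showed no overlap in either pair, with an exact permutation p of 0.0179 in the parental and 0.0536 in the GR KO pair. DEGs made up 46.7% of all genes in the parental and 54.8% in the GR KO pair. The share of all genes without overlap was not counted, so the lack of overlap is not shown to be particular to these members. The genotypes' tumor-culture differences were not tested against each other.

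Whole tumors hold host cells, so source and cell make-up cannot be told apart. Macrophage and monocyte markers summed to 4305 ± 743 CPM in parental control tumors and 5.63 ± 3.58 CPM in parental cells with DMSO, and adipocyte markers to 149.5 ± 28.0 and 0.0399 ± 0.0691 CPM. Of 5 melanocyte markers tested, 5 were higher in tumors than in cells in the parental pair (median 6.47) and 4 in the GR KO pair (4.93). *Tyr* had 0 counts in all 31 libraries, *Mlana*, *Dct* and *Sox10* had 0 in every culture, and the sum of 7 markers, led by *Mitf*, was 42.5 ± 10.6 CPM in parental control tumors and 10.6 ± 1.36 CPM in parental cells with DMSO.

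**Figure D3:**
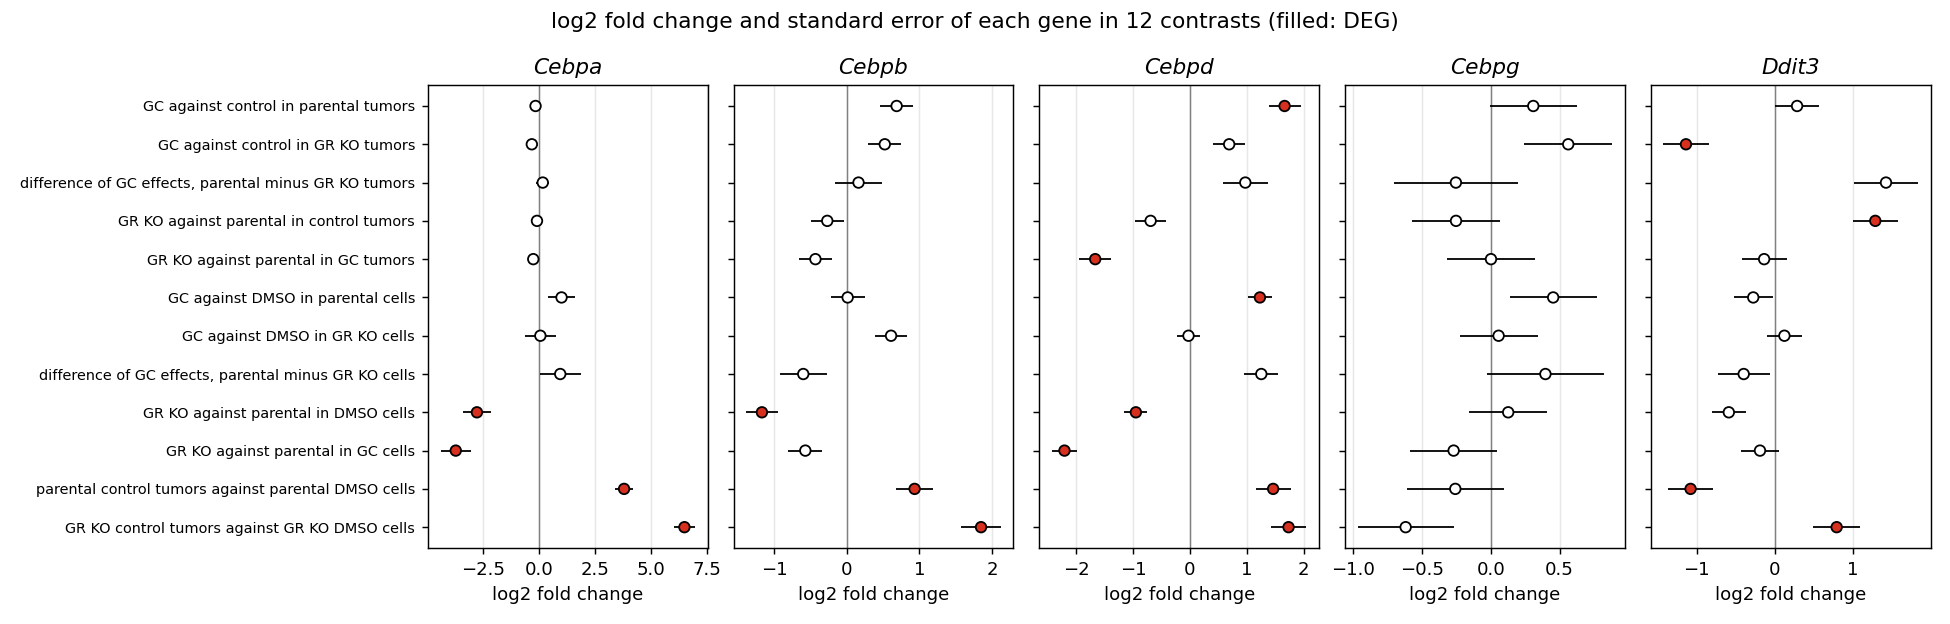
Log2 fold change of each C/EBP family gene (points, with the standard error as a bar) in 12 contrasts, with DEGs filled. *Cebpd* was filled with GC in parental tumors (1.66) and parental cells (1.23), and *Ddit3* with GC in GR KO tumors (-1.13).

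Counted over the family, all 5 genes passed the filter on low counts in tumors, in cultures and in the joint fit. With GC in parental tumors 1 member was a DEG, *Cebpd*, upwards, where 124 of 15919 genes were DEGs (0.779%), 69 up (0.433%) and 55 down (0.345%). With GC in GR KO tumors 1 was a DEG, *Ddit3*, downwards, against 1022 of all genes (6.42%), 431 up (2.71%) and 591 down (3.71%). For the difference of these effects edgeR called 0 members against 31 genes (0.195%). At an unadjusted p under 0.05 stood 2 members, against 3192 of all genes (20.1%). DESeq2 called 1 member, and its much larger count over all genes is given in the section on processing. Between genotypes, 1 member was called in control tumors, *Ddit3*, upwards, against 358 genes (2.25%), 201 up (1.26%) and 157 down (0.986%), and 1 after GC, *Cebpd*, downwards, against 101 genes (0.634%). These background counts moved with single tumors, from 303 without GR KO GC tumor 3 to 2411 without GR KO control tumor 4 for GC in GR KO tumors, and from 61 without GR KO control tumor 2 to 1762 without GR KO control tumor 4 for genotype in control tumors. Without the 6 *Gm26924*-rich tumors they were 29 and 0.

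In parental cells 1 member was a DEG with GC, *Cebpd*, upwards, against 110 of 12525 genes (0.878%), 77 up (0.615%) and 33 down (0.263%). In GR KO cells edgeR called 0 members and 0 genes (0%), with 1 member and 237 genes at an unadjusted p under 0.05, and DESeq2 called 0 members and 0 genes. For the difference of these effects edgeR called 0 members against 37 genes (0.295%). At an unadjusted p under 0.05 stood 1 member, *Cebpd*, against 1075 of all genes (8.58%). DESeq2 also called *Cebpd*, and its larger count over all genes is given in the section on processing. Between genotypes, 3 members were lower in GR KO cells with DMSO, *Cebpa*, *Cebpb* and *Cebpd*, against 1030 DEGs (8.22%), and 2 with GC, *Cebpa* and *Cebpd*, against 695 (5.55%). In these cultures with DMSO, 3 of 4 tested fibroblast markers (median -3.07) and the 1 tested melanocyte marker (-1.36) were lower in GR KO as well, with fibroblast sums of 78.4 ± 7.81 against 233 ± 57.1 CPM. With GC, 2 of these 4 and the melanocyte marker (-1.02) were lower. Between tumors and cultures 4 of 5 members were DEGs in each genotype, against 7595 of 16273 genes (46.7%) in the parental and 8917 (54.8%) in the GR KO pair. With backgrounds this high, such a count is not particular to the family.

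Related factors and pathway genes give the surroundings of these changes. The all-gene median log2 fold change was 0.0040 for GC in parental tumors, 0.051 for GC in GR KO tumors, -0.00052 for GC in parental cells and -0.043 for genotype in control tumors, and list medians below follow this order. Of 17 other C/EBP-like and leucine zipper factors, none was called with GC in parental tumors (median -0.029), and *Batf3* (-1.66, adjusted p = 0.00533) and *Batf2* (-1.52, adjusted p = 0.00804), which act in dendritic cells and macrophages, fell in GR KO tumors (median -0.037). None of 12 tested was called in parental cells (median -0.087), and among control tumors *Batf2* was higher in the GR KO group (1.45, adjusted p = 0.0268; median -0.093). Among these factors, *Cebpe*, the family member of late granulocyte development, had 0 counts in all 11 cultures, which allows up to 0.208 CPM. In tumors it was 3.41, 1.69, 2.51, 2.61 and 0.937 CPM in parental controls, 0.0518, 0.806, 0.0888, 0.674 and 0 with GC, 9.45, 4.32, 1.29, 4.16 and 8.29 in GR KO controls and 0.308, 0.160, 1.07, 2.07 and 1.29 with GC. Its levels with GC were lower, but neither -2.73, adjusted p = 0.144 in parental nor -2.45, adjusted p = 0.0706 in GR KO tumors was called, and parental tumors with GC held 0 to 16 counts.

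Of 25 stress genes around *Ddit3*, 1 rose with GC in both genotypes: *Ddit4*, a stress- and glucocorticoid-induced inhibitor of mTORC1, by 1.77, adjusted p = 0.000591 in parental tumors (list median -0.14) and 1.19, adjusted p = 0.00797 in GR KO tumors (0.11). None was called in parental cells (0.021) or between genotypes in control tumors (-0.16). *Atf4*, the activator of *Ddit3* in the integrated stress response, and *Trib3*, a target of CHOP, were thus not called where *Ddit3* was: GC in GR KO tumors gave -0.61, adjusted p = 0.122 for *Atf4* and -1.07, adjusted p = 0.0651 for *Trib3*. Other genes of the list went the other way in the same contrast, also without a call, such as *Dnajb9* (1.47, adjusted p = 0.0702) and *Xbp1* (1.02, adjusted p = 0.131). Between genotypes in control tumors, *Atf4* gave 0.58 (adjusted p = 0.178), *Trib3* 0.65 (adjusted p = 0.296) and *Dnajb9* -1.64 (adjusted p = 0.0744). *Atf4*, *Trib3*, *Dnajb9* and *Xbp1* were named after their values were seen. Of 18 tested signals and regulators upstream of C/EBP, the cytokines *Il1b* (-2.99, adjusted p = 0.00156) and *Tnf* (-1.99, adjusted p = 0.00645) fell with GC in parental tumors (median -0.11). In GR KO tumors *Tnf* (-2.98, adjusted p = 0.000180), *Il1b* (-2.29, adjusted p = 0.00549) and *Trib1* (-0.78, adjusted p = 0.0148), which directs C/EBP proteins to degradation, fell (median -0.091). In parental cells 2 of 15 rose, the cytokine receptor subunit *Il6st* (0.79, adjusted p = 0.0138) and *Klf5* (0.63, adjusted p = 0.0236), with a median of 0.28, and none was called between genotypes in control tumors (-0.027).

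Known C/EBP targets were read as lists, with no test of a list as a whole. Of 15 tested acute-phase and inflammatory targets, *Cp*, the copper carrier ceruloplasmin, rose (1.33, adjusted p = 0.0197) and *Il1b*, already given, fell with GC in parental tumors (median -0.15). In GR KO tumors *Il1b* and the complement factor *C3* (-1.04, adjusted p = 0.0395) fell (median -0.12). None of 5 was called in parental cells (0.39) and none between genotypes in control tumors (0.0024). Of 14 tested myeloid targets, *S100a9* (-5.03, adjusted p = 0.0109) and *S100a8* (-3.96, adjusted p = 0.0437), which are also neutrophil markers, fell with GC in parental tumors (median -0.55), and none was called in GR KO tumors (0.18), among 2 tested in parental cells (0.47) or between genotypes (-0.13). Of 12 tested adipocyte targets and partners, none was called in parental tumors (-0.19), *Cfd*, the fat cell protease adipsin, fell in GR KO tumors (-1.31, adjusted p = 0.00133; median -0.34), and none was called among 3 in parental cells (-0.015) or between genotypes (-0.47). Of 10 glucocorticoid-responsive reference genes, 6 rose in parental tumors (median 1.62), led by *Tsc22d3* (2.34) and *Per1* (2.19), and 5 rose in GR KO tumors (1.27), led by *Fkbp5* (2.03) and *Tsc22d3* (1.77). In parental cells 7 of 9 rose (2.23), led by *Mt2* (3.76) and *Tsc22d3* (3.09), and in control tumors the GR KO genotype went with less *Fkbp5* (-1.50, adjusted p = 0.0296; median -0.17).

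The members were also compared with each other and with all genes, by Pearson r and Spearman rho of log2(CPM + 1). These are descriptions with no test, since libraries share group, depth and composition. Over 20 tumors, *Cebpb* and *Cebpd* went together (r = 0.758, rho = 0.7098), and *Cebpg* and *Ddit3* went apart (r = -0.612, rho = -0.561). Over 11 cultures, *Cebpa* and *Cebpd* were closest (r = 0.934, rho = 0.927), with *Cebpa* and *Cebpb* at r = 0.748 and *Cebpb* and *Cebpd* at r = 0.742. In cultures *Cebpg* and *Ddit3* again went apart (r = -0.644, rho = -0.427). Among all genes tested in tumors, the most like *Cebpd* were *Gad2* (r = 0.897), *Wnk4* (0.850) and *Adamts1* (0.846), and the most like *Cebpb* were *Sdr16c6* (0.875), *Kdelc2* (0.860) and *Cd209b* (0.851). *Cebpa* had weaker matches in *Apba1* (0.704), *Rtn4r* (0.702) and *Snrpd3* (0.682). *Cebpg* was most like *Decr2* (0.904), *Mtrr* (0.878) and *Clec4a2* (0.866), and *Ddit3* most like *Chpf* (0.929), *Slc48a1* (0.922) and *Tmem189* (0.919). In cultures the closest were *Eif4b* (0.984), *Ctsk* (0.982) and *Mkl1* (0.975) for *Cebpa*, and *Klhl25* (0.955), *Scd1* (0.951) and *Pcdh1* (0.941) for *Cebpb*. For *Cebpd* they were *Pla1a* (0.974), *Fabp5* (0.974) and *Oas1b* (0.971). For *Cebpg* they were *Supt20* (0.978), *Serpinh1* (0.976) and *Tmpo* (0.973), and for *Ddit3* *Cct5* (0.985), *Vps52* (0.981) and *Eif3h* (0.979).

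The genes differ in structure and in what they share with neighbors. On GRCm38, *Cebpa* (ENSMUSG00000034957) lies at chr7:35119293-35121928 on the plus strand, *Cebpb* (ENSMUSG00000056501) at chr2:167688915-167690418, plus, and *Cebpd* (ENSMUSG00000071637) at chr16:15887286-15891031, plus. Each of these has 1 block of exons, as genes without introns do. *Cebpg* (ENSMUSG00000056216) lies at chr7:35046422-35056573 on the minus strand with 3 exon blocks, and *Ddit3* (ENSMUSG00000025408) at chr10:127290774-127296288, plus, with 4. *Cebpb* shares 312 exon bases (20.7%) with *Tmem189* and *Cebpd* shares 562 (15.003%) with *Spidr*, both on the opposite strand. *Ddit3* shares 68 (3.97%) with *Mars*, also on the opposite strand. No strand setting is named for the counting, and where nothing is named the methods give default settings, which in featureCounts ignore strand. Without strand, reads on shared bases cannot be told apart, which leaves these members' counts uncertain. As reads come from 3′ ends, the share of counts concerned can differ from the share of bases and was not measured. By position, the genes *Spidr* and *Mars* span the 3′ ends of *Cebpd* and *Ddit3*, while *Tmem189* spans the start of *Cebpb*.

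No difference between a neighbor and its member was tested. *Spidr* was not called with GC in parental tumors (0.92, SE 0.77, adjusted p = 0.630) or parental cells (0.57, SE 0.58, adjusted p = 0.744), where its sign was that of *Cebpd*, or between genotypes after GC in tumors (-0.90, SE 0.77, adjusted p = 0.684), again with the same sign. Its sign was opposite to that of *Cebpd* between genotypes in cells with DMSO (0.25, SE 0.53, adjusted p = 0.796) and in parental tumors against cells (-0.44, SE 0.79, adjusted p = 0.673). The signs were the same between genotypes in cells with GC (-0.22, SE 0.58, adjusted p = 0.901) and in GR KO tumors against cells (0.39, SE 0.80, adjusted p = 0.695). *Spidr* was not called in these contrasts either. Nor was *Mars* called with GC in GR KO tumors (0.53, SE 0.28, adjusted p = 0.239) or between genotypes in control tumors (-0.25, SE 0.28, adjusted p = 0.629), where *Ddit3* was. Between tumors and cells, *Mars* was lower in tumors by -1.65 (SE 0.27, adjusted p = 9.73e-06) in the parental and -1.83 (SE 0.27, adjusted p = 1.37e-06) in the GR KO pair, the same direction as *Ddit3* in the parental pair only. *Tmem189* fell with GC in GR KO tumors (-1.03, SE 0.25, adjusted p = 0.0188) and among control tumors was higher in the GR KO group (0.95, SE 0.25, adjusted p = 0.0458), in both cases opposite in sign to *Cebpb*. In cells with DMSO, where *Cebpb* differed by genotype, *Tmem189* gave 0.015 (SE 0.15, adjusted p = 0.964). Between tumors and cells, *Tmem189* was higher in tumors by 1.20 (SE 0.26, adjusted p = 0.000273) and 2.13 (SE 0.27, adjusted p = 6.81e-08), in the same direction as *Cebpb*.

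Promoters are shown for *Cebpa* and *Cebpb*, which were lower together in GR KO cells with DMSO, and for *Ddit3*, which followed another pattern. The sequences are from RefSeq on GRCm38.p6 and are 300 bases long around the gene's start, and 4 of the 5 members were matched; *Cebpd* was not in the table. Capitals mark TTGCG in *Cebpa*, TGACG on either strand in *Cebpb* and TGANTCA in *Ddit3*. The regions are chr7:35119043-35119342, plus strand, for *Cebpa*, chr2:167688665-167688964, plus strand, for *Cebpb* and chr10:127290543-127290842, plus strand, for *Ddit3*.
Cebpa: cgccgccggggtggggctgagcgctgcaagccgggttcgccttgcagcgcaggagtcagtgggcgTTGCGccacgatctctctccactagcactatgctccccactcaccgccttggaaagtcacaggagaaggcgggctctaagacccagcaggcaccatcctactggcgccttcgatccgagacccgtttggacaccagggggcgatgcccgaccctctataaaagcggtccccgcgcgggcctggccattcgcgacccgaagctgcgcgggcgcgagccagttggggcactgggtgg
Cebpb: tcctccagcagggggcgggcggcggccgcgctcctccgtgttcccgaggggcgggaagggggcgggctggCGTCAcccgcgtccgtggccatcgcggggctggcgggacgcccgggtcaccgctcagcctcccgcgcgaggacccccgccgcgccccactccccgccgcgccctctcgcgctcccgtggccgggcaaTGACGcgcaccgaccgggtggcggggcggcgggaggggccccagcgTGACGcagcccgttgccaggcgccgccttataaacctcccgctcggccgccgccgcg
Ddit3: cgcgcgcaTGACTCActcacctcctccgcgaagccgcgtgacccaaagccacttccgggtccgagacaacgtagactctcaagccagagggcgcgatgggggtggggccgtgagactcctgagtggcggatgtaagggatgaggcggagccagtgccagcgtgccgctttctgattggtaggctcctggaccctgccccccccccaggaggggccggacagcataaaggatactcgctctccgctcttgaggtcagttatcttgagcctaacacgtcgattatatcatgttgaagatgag

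All motifs were searched on both strands, and a short C/EBP site (TTGCG), a short cyclic AMP site (TGACG) and the TATA box (TATAAA) were added with these sequences in view. TTGCG, known as an arm of a C/EBP site, stood 185 bases before the start of *Cebpa* and is found in 17.5% of 27025 promoters of this length. TGACG, part of the whole cyclic AMP element that is spelled TGACGTCA, stood 180, 53 and 7 bases before the start of *Cebpb* and is found in 21.0% of promoters. The AP-1 element TGANTCA stood 242 bases before the start of *Ddit3* and is found in 7.93% of promoters. CCAAT was in the promoters of *Ddit3*, 77 bases before the start, and *Cebpg*, 89 and 28 bases before, as in 37.9% of all, and TATAAA was in those of *Cebpa*, 30 bases before the start, and *Cebpb*, 21 bases after it, as in 14.2%. All distances count from the start used in the table. None of the 4 windows held AGAACA, the single arm of a glucocorticoid receptor site (in 19.0% of promoters), its paired form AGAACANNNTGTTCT (in 0.0037%), the C/EBP core TTNCNNAA, which can overlap the short C/EBP site (in 40.7%), the C/EBP-ATF element TGATGNAA (in 4.06%) or TGACGTCA (in 1.88%). A match is a stretch of letters and no shown binding site, and a missing match says only that these letters are not in this window.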

How the data were processed

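Libraries were made with the QuantSeq 3′ FWD kit. The authors trimmed reads with Trim Galore 0.6.5, aligned them with STAR 2.6.1d to GRCm38 and deposited integer counts per gene from featureCounts with Ensembl release 75, unfiltered and not normalized, for 39179 genes. Positions come from GENCODE M21 on the same assembly, a later annotation than the one counted.

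Counts were fitted with edgeR 4.0.16 in R 4.3.3: TMM factors, genes with at least 0.5 CPM in at least 3 libraries, the quasi-likelihood test over groups, and Benjamini-Hochberg adjustment over all genes tested. Tumors (15919 genes), cultures (12525) and all 31 libraries (16273, for tumors against cultures) were fitted apart. Exact permutation tests went through all divisions of the libraries, with numpy 2.4.6 in Python 3.11.15. Spearman rho between members came from scipy 1.17.1. Alternatives were DESeq2 1.42.0, its size factors, no filter, 10 counts in every library, a replicate block, a minimum fold change of 2 or none, the compared groups alone, other scalings, a pseudocount of 0.1 and leaving out each library. The *Gm26924* share and genes detected as covariates, and the omission of *Gm26924*-rich tumors, were chosen after seeing the data. The pipeline was tested on simulated data.

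Named genes are the members, *Nr3c1*, up to 4 DEGs per direction of each gene list, the 3 genes most like each member, and the most abundant marker and absent markers of each cell type. Members and lists were chosen with earlier results of these data known. Replicates of a group differed by a mean chi-square per gene of 8.26 to 411, where a library deposited under different names would give about 0. Floors cover counting error only.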

Additional observations from a re-analysis of the deposited data

Results flagged for a closer look

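Parental control tumor 1 stood far from the other tumors of its group in the share of reads on *Gm26924*, with 5.55% against 1.76% for the nearest. The gap was 0.741 of the whole range of the group. It was the 1 sample that stood apart in 32 checks, of 8 measures in 4 groups of tumors, where chance alone marks about 1 in 20 groups. Leaving this tumor out together with the others over 5% kept the calls of *Cebpd* in tumors. Those of *Ddit3* were not kept. Its value went from 1.28 to 0.63 between genotypes in control tumors and from -1.13 to -0.56 for GC in GR KO tumors. That fit holds 1 GR KO control tumor, so its lost calls cannot be told apart from the small group. Both calls were also lost in fits that keep all tumors and take the *Gm26924* share or genes detected as a covariate.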

How the results depend on the processing

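With the reported fit as the base, all calls of *Cebpd* between GC and control in parental tumors, between genotypes after GC in tumors and cells, and of *Cebpa* between genotypes in GC-treated cells kept their direction and their side of the threshold in every alternative run. No minimum fold change left every call of the 5 genes and every count of DEGs within 1.5 times. All 80 group means under other scalings moved by less than 1 SD, and all 50 permutation results kept their side of 0.05 with a pseudocount of 0.1. Some of these could not have changed side. Within cultures the smallest possible p is 0.1, and tumor groups of 5 against 5 without overlap stay at the smallest p with any pseudocount. Scaling with size factors moved the all-gene median by at most 0.089. Where no reason is given, the cause was not tested.

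With DESeq2, counts of DEGs were 376 for GC in parental tumors, 1756 for GC in GR KO tumors, 784 for their difference, 1001 and 293 between genotypes in control and GC-treated tumors, 251 for GC in parental cells and 128 for the difference in cells. *Ddit3* passed for the difference in tumors (1.45, adjusted p = 0.0242) and *Cebpd* for that in cells (1.26, adjusted p = 0.0190), and *Cebpg* between genotypes after GC in tumors turned to -0.013. With size factors in edgeR the last value was -0.014. Without a filter it was -7.8e-05, and the differences of GC effects gave 49 DEGs in tumors and 64 in cells. With 10 counts in every library, which tests fewer genes, DEGs were 66 for the difference in tumors, 661 and 445 between genotypes in cells with DMSO and GC, and 4431 and 5081 between tumors and cells in the parental and GR KO pair. *Cebpb* with GC in parental cells turned to -0.0017, and *Cebpa* could not be fitted in cultures or in the joint fit.

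Same-numbered libraries were not paired, since their deviations correlated by a mean of 0.0235 over 30 tumor pairs and 0.0110 over 15 culture pairs. With the replicate block, DEGs were 144 for the difference in tumors, 160 between genotypes after GC in tumors and 63 for GC in parental cells. *Cebpd* with GC in parental cells was then not called (1.18, adjusted p = 0.0800), *Cebpg* between genotypes after GC in tumors turned to -0.032 and *Cebpb* with GC in parental cells to -0.10. A minimum fold change of 2 gave 583 DEGs for GC in GR KO tumors and 238 between genotypes in control tumors, and by its construction ended the calls of *Cebpd* between genotypes with DMSO (-0.95), *Cebpb* between parental tumors and cells (0.93) and *Ddit3* between GR KO tumors and cells (0.79). Fits of the compared groups alone gave 381 DEGs for GC in GR KO tumors, 165 between genotypes in control tumors, 60 for GC in parental cells and 349 between genotypes in cells with GC, and -0.0034 for *Cebpg* between genotypes after GC in tumors.

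The next settings were chosen after seeing the data. With the *Gm26924* share as a covariate, DEGs were 329 and 626 for GC in parental and GR KO tumors and 69 and 225 between genotypes in control and GC-treated tumors. *Ddit3* was -0.91 for GC in GR KO tumors and 0.99 between genotypes in control tumors, neither called, and *Cebpg* between genotypes in control tumors turned to 0.019. With genes detected as a covariate, these counts were 515, 218, 51 and 358, with 15 for the difference of effects. *Ddit3* was -0.72 and 0.82, *Cebpg* turned to 0.14 for the difference and 0.20 between genotypes in control tumors, and *Cebpa* turned to 0.0078 there. Without tumors over 5% *Gm26924*, which leaves 14 tumors, DEGs were 29 for GC in GR KO tumors, 0 for the difference of effects and between genotypes in control tumors, and 170 between genotypes after GC. *Ddit3* was -0.56 and 0.63, *Cebpb* turned to -0.13 for GC in GR KO tumors, *Cebpg* to 0.26 for the difference, where *Cebpb* grew from 0.16 to 0.92, and *Cebpa*, *Cebpb* and *Cebpg* to 0.19, 0.35 and 0.42 between genotypes in control tumors.

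Leaving out 1 library at a time gave these lowest and highest values, with a lone remaining library assumed to vary like the other groups. Counts of DEGs ran from 60 (without parental control tumor 3) to 178 for GC in parental tumors and from 303 (without GR KO GC tumor 3) to 2411 (without GR KO control tumor 4) for GC in GR KO tumors. For the difference of these effects they ran from 0 (without parental control tumor 3 or GR KO control tumor 2) to 1284 (without GR KO control tumor 4). Between genotypes they ran from 61 (without GR KO control tumor 2) to 1762 (without GR KO control tumor 4) in control tumors and from 40 (without GR KO GC tumor 5) to 114 in GC-treated tumors. In cells they ran from 31 (without parental GC culture 1) to 78 for GC in parental cells, from 17 (without parental GC culture 2) to 43 for the difference, from 594 (without GR KO DMSO culture 2) to 916 between genotypes with DMSO and from 322 (without parental GC culture 1) to 842 with GC. *Ddit3* ran from 1.15 to 1.56 for the difference in tumors, 1.08 to 1.41 between genotypes in control tumors, -0.28 to 0.14 after GC, -1.28 to -0.94 for GC in GR KO tumors, -0.036 to 0.29 for GC in GR KO cells and 0.60 to 0.90 between GR KO tumors and cells. *Cebpd* ran from 1.13 to 1.30 for GC in parental cells, -0.25 to 0.13 in GR KO cells, 1.10 to 1.48 for their difference and -1.11 to -0.85 between genotypes with DMSO. *Cebpb* ran from 0.39 to 0.69 for GC in GR KO tumors, -0.00017 to 0.30 for the difference in tumors and -0.19 to 0.19 for GC in parental cells. *Cebpa* ran from -3.20 to -2.37 between genotypes with DMSO and -0.42 to 0.36 for GC in GR KO cells. *Cebpg* ran from -0.19 to 0.16 between genotypes after GC in tumors, -0.093 to 0.30 with DMSO in cells, -0.26 to 0.28 for GC in GR KO cells and -0.93 to -0.43 between GR KO tumors and cells.

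Depth limits *Cebpa* most, with 4 to 18 counts per GR KO culture, while the other members held at least 106 counts in every library. Cultures have 2 or 3 libraries per group, GR KO cells carry the edits of clones, and a clone's other differences from the parental line cannot be told apart from the loss of the receptor. Library names give the same tag to all GR KO cultures and what reads as the same date to all cultures. Replicates of a culture group are thus not shown to be separate clones or days. Likeness was less steady than the calls: 10 of 30 genes kept a place among the first 3 by rho.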
